A study of Mus musculus with 4 samples.

Results

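Water and ions cross the lining of the middle ear through a small set of channels and carriers, and 9 of their genes were followed here. They are the aquaporins Aqp1, Aqp3 and Aqp5, the epithelial sodium channel (ENaC) subunits Scnn1a, Scnn1b and Scnn1g, and the chloride secretion genes Cftr, Slc12a2 and Ano1. They were chosen by name for their role in setting middle ear fluid, and no measured value entered the rule. Earlier results of these data were known when they were chosen. Through the transcript that each probe targets, they were matched to 10 of the 39429 probes on the array, Aqp5 to 2 probes and each of the others to 1. Of the 25694 genes tested, 7 were members. For the remaining 2 members, Scnn1g and Cftr, neither channel of any array was well above background.

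The data compare ear extracts of male BALB/c mice aged 6 to 10 weeks on 4 two-colour arrays. The exposed mice inhaled diesel exhaust particles (DEPs), suspended in saline with the detergent Tween 80, for 1 h on each of 5 days. Tissue dates from day 14. The harvest took in temporal bone around the middle ear, while the RNA is described as coming from dissected middle ears. How much surrounding tissue the extracts held is not stated. The treatment of the controls is labelled none, and no vehicle treatment is given for them. The study used 9 mice, and the number of mice behind an extract is not stated in the sources used here. The labels call the arrays biological replicates, so each p-value measures the spread between 4 arrays and no more.

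By their source names, the red dye (Cy5) of each array carried the DEP ear and the green dye (Cy3) the control ear. The labels are not consistent on this point. Their treatment entries place both groups in the Cy5 channel and leave the Cy3 channel without one, and the source names were preferred. No array had its dyes swapped, and therefore dye preference and exposure cannot be told apart. All ratios are given as the log2 of DEP (Cy5) over control (Cy3). This direction is opposite to the one the study gives for most of the genes it names as increased or decreased. If the dyes held the groups the other way round, the sign of every ratio below would turn, with sizes and p-values as they are.

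A single slide in a single scan held all 4 arrays, which leaves no batch to compare. Between 65.4% and 68.9% of probes were well above background in Cy5, and between 59.2% and 68.0% in Cy3. Pearson's r between the ratios of different arrays, across probes that are not independent replicates, ranged from -0.22 to 0.61. Over all genes tested, 0 had an adjusted p under 0.05 in limma's moderated test, with a smallest adjusted p of 0.0922, although 4800 had an unadjusted p under 0.05.

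Aquaporins are membrane pores that let water follow an osmotic gradient. In airway-like epithelium ENaC draws sodium, and with it water, from the lumen into the tissue, whereas the basolateral carrier Slc12a2 (NKCC1) loads chloride into the cell for release through the apical channels Cftr and Ano1 (TMEM16A), which draws water the other way. The balance of both flows sets the depth of the fluid film that cilia move towards the Eustachian tube.

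By mean ratio, 5 of the 7 tested members were higher and 2 were lower in the DEP extracts (2 higher and 5 lower with the dyes turned), as were 13919 higher and 11775 lower of all genes tested, with a median of 0.14 against 0.032 over all genes tested. The members' median was -0.045 without array 1, 0.018 without array 2, 0.31 without array 3 and 0.19 without array 4, so that its sign rests on array 1. None was past 2-fold by its mean (0 of 7), where 6.75% of all genes were. An unadjusted p under 0.05 in limma's moderated test was found for 0 of 7 members, against 18.7% of all genes, and 0 had one in an ordinary least-squares test of the same ratios. After adjustment over all probes tested, 0 of 7 members and 0% of all genes passed, and the members' adjusted p-values lay between 0.386 and 0.796. Among the 6 members whose channels were both well above background throughout, 0 had DEP signals that all lay on 1 side of the control signals, against 11.7% of the 18349 genes measured as fully. With 4 arrays, an exact two-sided sign-flip test of a single gene cannot give a p under 0.125.

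The ratios of the members changed sign from array to array. Of the 7 tested members, 5 were higher in the DEP extract on array 1, 7 on array 2, 3 on array 3 and 1 on array 4, and the members' median ratio was 0.48, 0.36, -0.40 and -0.31 in that order. No member kept 1 sign on all 4 arrays (0 of 7), whereas 6962 of the 25694 genes tested did. On array 1, 3 members were past 2-fold, Aqp3, Scnn1a and Scnn1b, all higher in the DEP extract, against 18.0% of all genes in either direction. For Scnn1b this ratio is against a control signal that was not well above background, so its size is not measured. Array 2 had 0 members past 2-fold, against 9.84% of all genes. Array 3 had 1, Aqp5, lower in the DEP extract, against 10.6%, and array 4 had 0, against 9.85%.

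**Figure D1:**
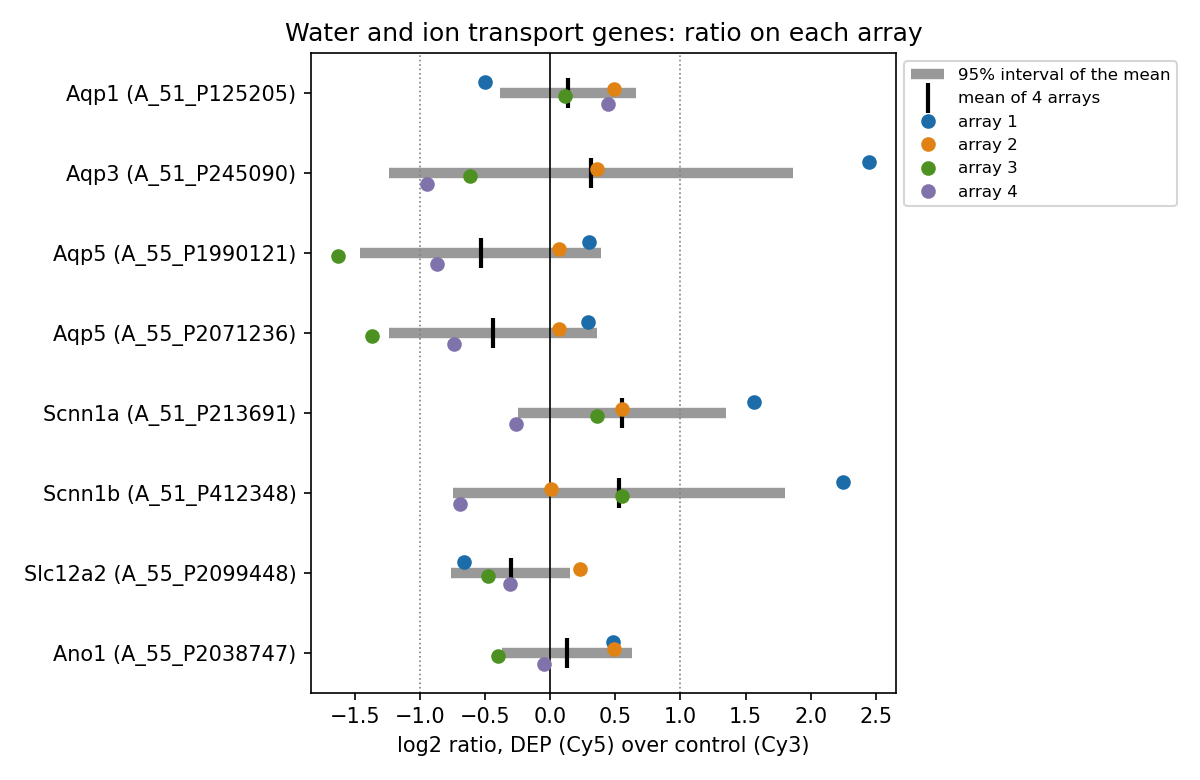
Log2 ratio of DEP (Cy5) over control (Cy3) for each tested probe, with 1 point per array, the mean of 4 arrays as a black bar and its 95% interval from limma as a grey band; dotted lines mark 2-fold. Every interval includes 0, and the ratios of Aqp3 run from -0.95 to 2.45.

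Among the aquaporins, Aqp1 is the water channel of red cells and of the endothelium of small vessels. Levels below are scaled signals in arbitrary units, brought to a common distribution between arrays, and they can be compared between extracts for 1 probe but not between probes. On arrays 1 to 4, the Aqp1 signal was 19103, 28720.3, 26566 and 32735 in the DEP extracts and 27045, 20458, 24494 and 24134 in the controls. The DEP extract was the lower one on array 1 and the higher one on the other 3 arrays, and the 2 groups overlapped. The log2 ratios were -0.50, 0.49, 0.12 and 0.44, with a mean of 0.14 ± 0.46 (SD, n = 4 arrays). The 95% interval of the mean ran from -0.38 to 0.66, with an adjusted p = 0.732 from limma. Only with normexp background correction and median centring of every array did Aqp1 pass, at 0.83 and an adjusted p = 0.0358, under a setting that called 2988 genes, 2784 of them higher. These are extracts of whole tissue, in which fewer cells of a type and less RNA per cell cannot be told apart.

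Aqp3 passes water and glycerol and is known from the basal cells of airway epithelium and from the epidermis. Its signal in the DEP extracts of arrays 1 to 4 was 5191, 2764, 1654 and 1158, and in the controls it was 949.7, 2150.4, 2534.5 and 2233. The DEP extract of array 1 held the highest of these 8 signals and the control extract of the same array the lowest, and among the remaining 6 extracts the groups overlapped. The ratios were 2.45, 0.36, -0.62 and -0.95, so that Aqp3 was 5.47-fold higher in DEP on array 1 and 1.93-fold higher in the control on array 4. Their mean was 0.31 ± 1.53 (SD, n = 4 arrays), with a 95% interval from -1.24 to 1.86 and an adjusted p = 0.796 from limma. Without array 1 the mean was -0.40, which turns its direction. The SD of the Aqp3 ratios between arrays was larger than that of 97.6% of the 18349 genes with full measurements, meaning both channels well above background throughout, whose median SD was 0.28.

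Aqp5 is the apical water channel of secretory epithelium, as in salivary and airway submucosal glands. Its brighter probe (A_55_P1990121) had signals of 2412, 8287, 5145 and 11179.8 in the DEP extracts and 1959.9, 7902, 15953 and 20425 in the controls. Both extracts of array 1 were the lowest of their group and both extracts of array 4 the highest, and the groups overlapped. Within the controls alone the signal spanned 10.4-fold, and within the DEP extracts it spanned 4.64-fold. The SD of the log2 level was 1.52 in the controls and 0.97 in the DEP extracts, larger than in 98.9% and 97.5% of the genes with full measurements.

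The Aqp5 ratios were 0.30, 0.069, -1.63 and -0.87 on arrays 1 to 4. The control extract was thus 3.10-fold higher on array 3 and 1.83-fold higher on array 4, with little difference on arrays 1 and 2. The mean was -0.53 ± 0.89 (SD, n = 4 arrays), with a 95% interval from -1.46 to 0.39 and an adjusted p = 0.458 from limma. The dimmer probe (A_55_P2071236) gave ratios of 0.29, 0.064, -1.37 and -0.74, a mean of -0.44 ± 0.76 and an adjusted p = 0.479, and its control signals spanned 10.4-fold as well. Both probes ordered the arrays in the same way.

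**Figure D2:**
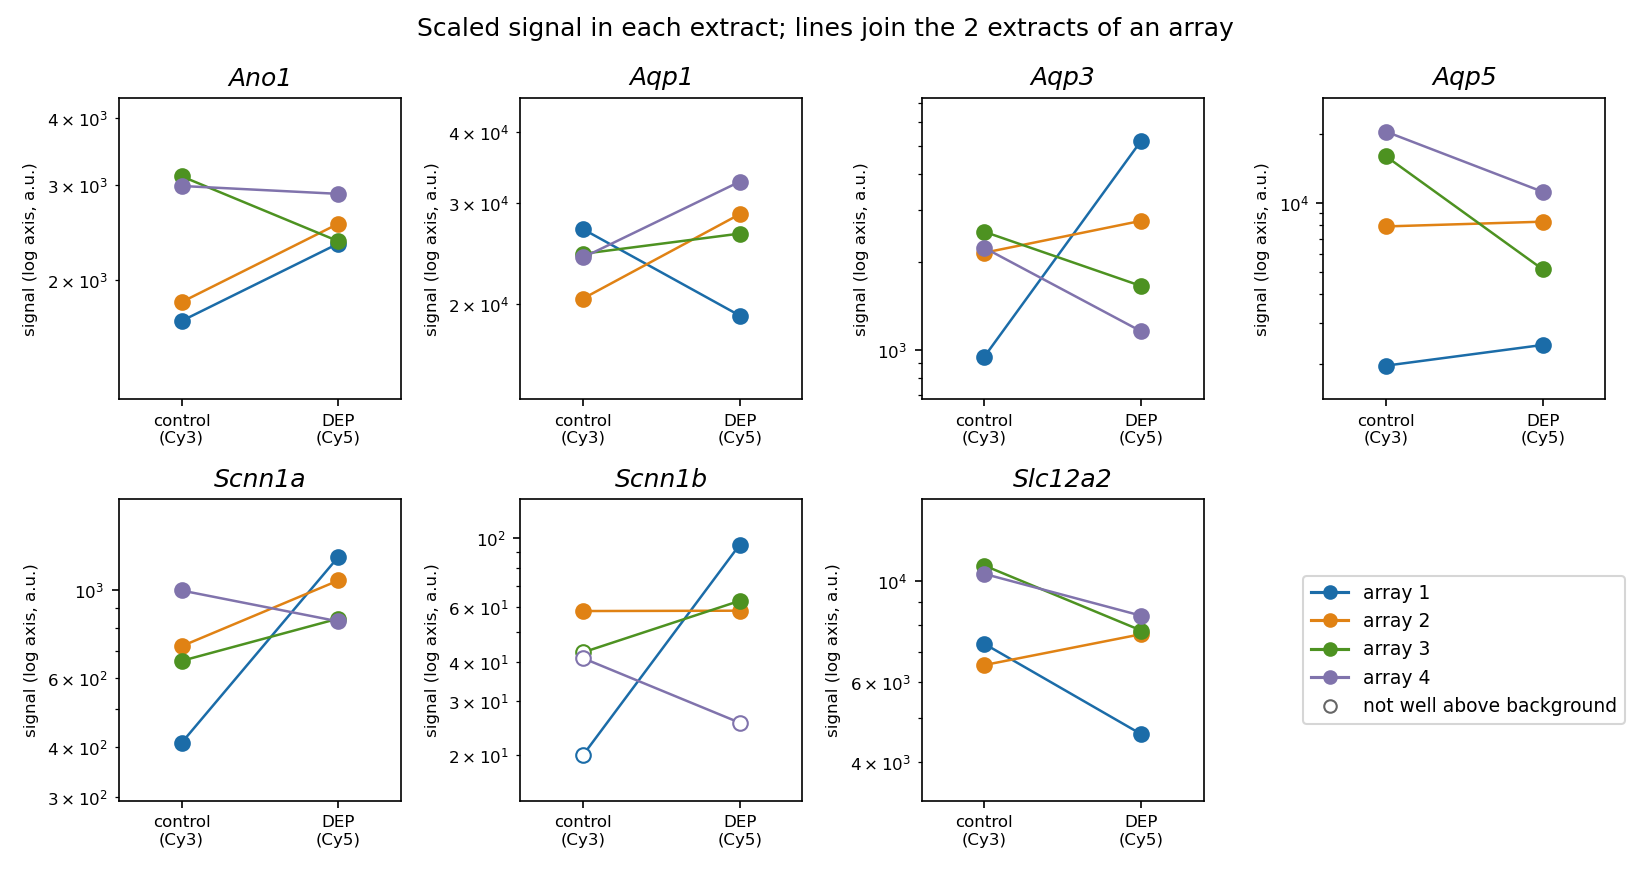
Scaled signal (arbitrary units, log axes that differ between panels) of the 7 tested members in the control (Cy3) and DEP (Cy5) extract of each array, with a line joining the extracts of 1 array and open symbols where a channel was not well above background. The lines cross in every panel, and the control signals of Aqp5 span 10.4-fold.

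The promoters of Aqp3 and Aqp5, the members with the widest spread of levels among the 6 measured above background in every extract, are printed from RefSeq (GRCm38.p6). Each runs from 250 bases before to 50 bases after the annotated start, 5′ to 3′ on the strand of the gene, chr4:41098134-41098433 on the minus strand for Aqp3 and chr15:99590778-99591077 on the plus strand for Aqp5. Capitals mark exact matches, on either strand and with overlaps allowed, to the core of the aryl hydrocarbon receptor element (GCGTG), the Sp1 box (GGGCGG) or the core of the antioxidant response element (TGACNNNGC).
Aqp3: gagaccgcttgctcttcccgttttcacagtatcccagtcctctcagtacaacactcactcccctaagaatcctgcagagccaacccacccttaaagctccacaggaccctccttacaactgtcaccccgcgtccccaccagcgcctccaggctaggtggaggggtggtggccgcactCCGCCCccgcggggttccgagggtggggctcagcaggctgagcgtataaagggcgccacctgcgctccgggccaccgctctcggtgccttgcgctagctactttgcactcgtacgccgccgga
Aqp5: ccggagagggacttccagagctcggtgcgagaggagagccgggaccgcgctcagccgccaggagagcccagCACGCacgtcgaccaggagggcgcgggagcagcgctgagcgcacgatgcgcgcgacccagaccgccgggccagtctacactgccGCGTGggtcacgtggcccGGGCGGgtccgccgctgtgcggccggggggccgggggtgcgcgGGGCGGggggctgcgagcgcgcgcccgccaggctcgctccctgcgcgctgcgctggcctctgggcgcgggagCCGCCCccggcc

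The Aqp5 promoter held 2 matches to the aryl hydrocarbon receptor core and 3 to the Sp1 box, and the Aqp3 promoter held 0 and 1. Neither held the antioxidant response core. Among 32851 mouse promoters of the same length, 32.4% hold the aryl hydrocarbon receptor core, 35.7% the Sp1 box and 12.4% the antioxidant response core. Promoters were found for 7 of the 9 members, and of these Aqp5 and Cftr held the aryl hydrocarbon receptor core and Scnn1b the antioxidant response core. Scnn1a and Slc12a2 had no entry. A match describes letters in this window and is not a site at which binding was measured.

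ENaC is made of an alpha, a beta and a gamma subunit, and Scnn1a encodes the alpha subunit, without which little channel reaches the surface. The Scnn1a signal was 1214, 1058, 847 and 834 in the DEP extracts of arrays 1 to 4, and 410.4, 721, 662 and 998 in the controls. The DEP extract was higher on arrays 1, 2 and 3 and lower on array 4, and the groups overlapped because the control of array 4 exceeded 2 of the DEP extracts. The ratios were 1.56, 0.55, 0.36 and -0.26, and on array 1 Scnn1a was 2.96-fold higher in DEP. The mean was 0.55 ± 0.76 (SD, n = 4 arrays), with a 95% interval from -0.24 to 1.35. Its unadjusted p of 0.134 from limma was the smallest among the members, and the adjusted p was 0.386.

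Scnn1b, the beta subunit, was dim. Its probe was well above background in DEP on 3 arrays and in the control on 1, so that both channels were measured on array 2 alone, where the ratio was 0.0039. The DEP signals were 95.2, 58.4, 62.8 and 25.5, and the control signals were 20.03, 58.2, 42.9 and 41.1. The DEP extract of array 1 was the highest of the 8, the signals that were not well above background have no order, and the groups overlapped. The ratios were 2.25, 0.0039, 0.55 and -0.69, with a mean of 0.53 ± 1.25 (SD, n = 4 arrays) and an adjusted p = 0.588 from limma. Without array 1 the mean was -0.045, and with normexp correction and loess the ratio of array 1 was 0.73 in place of 2.25.

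Scnn1g, the gamma subunit, gave no ratio on any array. Its scaled signal lay between 3.57 and 5.55 in DEP and between 4.22 and 6.56 in the controls. None of these signals was well above background, and no fold is given.

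Of the chloride secretion genes, Slc12a2 is the carrier that brings sodium, potassium and chloride into the cell together. Its signal on arrays 1 to 4 was 4609, 7651, 7795 and 8404 in the DEP extracts and 7284, 6545, 10835 and 10387 in the controls. The DEP extract of array 1 lay below the other 3 DEP extracts and below every control, while the others overlapped with the controls. The DEP extract was lower on 3 of 4 arrays, with ratios of -0.66, 0.23, -0.48 and -0.31. The mean was -0.30 ± 0.38 (SD, n = 4 arrays), with a 95% interval from -0.76 to 0.15 and an adjusted p = 0.401 from limma. With normexp correction and median centring the mean was 0.12.

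Ano1, the calcium-activated chloride channel, had signals of 2334, 2542, 2358 and 2890.1 in the DEP extracts and 1674, 1815, 3116 and 2989 in the controls. The DEP extract was higher on arrays 1 and 2 and lower on arrays 3 and 4, and all 4 DEP signals lay inside the range of the controls. The ratios were 0.48, 0.49, -0.40 and -0.049, with a mean of 0.13 ± 0.43 (SD, n = 4 arrays) and an adjusted p = 0.736 from limma. Its levels varied little in DEP (SD of the log2 level 0.14) and more in the controls (0.47).

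Cftr, the cyclic AMP-regulated chloride channel, was never well above background. Its signal lay between 5.84 and 9.28 in DEP and between 5.55 and 24.97 in the controls. A ratio was given on 2 arrays, too few for the test, and no fold is reported.

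The members did not share 1 pattern over the extracts. Pearson's r of the log2 levels over the 8 extracts, of which the 2 on an array share a hybridisation, is given as a description. It was 0.78 between Aqp5 and Slc12a2, 0.75 between Aqp5 and Ano1, and 0.74 between Aqp3 and Scnn1a. Aqp3 and Aqp5 had an r of 0.035, Slc12a2 and Ano1 one of 0.58, and Aqp1 and Aqp3 one of -0.69. The remaining pairs of these 6 members lay between -0.40 and 0.52.

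For each of these 6 members, the 3 genes with the most alike levels over the same 8 extracts were sought among 14282 others, the genes with full measurements that also have a RefSeq symbol. For Aqp5 they were Rab17, Slc13a2 and Tff1, with r between 0.987 and 0.992. Tff1 had ratios of 0.35, 0.62, -1.65 and -0.97 on arrays 1 to 4, next to 0.30, 0.069, -1.63 and -0.87 for Aqp5. For Aqp3 they were Dapl1, Atox1 and Nr5a1 (r between 0.963 and 0.964), and for Scnn1a they were Rnf149, Pabpc1l and 2310039H08Rik (0.983 to 0.990). Aqp1 was most like Togaram1, Nudt4 and Heatr5a (0.955 to 0.983), Slc12a2 most like Pik3r6, Ptpru and Irgm1 (0.974 to 0.990), and Ano1 most like Gm13286, Man2a1 and Ace (0.974 to 0.983). These coefficients were picked as the highest of many over 8 values and are given as a description only.

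Markers of cells that a temporal bone extract can hold moved with some of the members. The 10 keratinocyte markers, among them Krt5, Krt14 and Lor, were all on the array, and 9 of them, all but Dsg3, were measured above background in every extract. Their median ratio was 2.82, 0.33, 0.075 and -0.88 on arrays 1 to 4, all 10 were higher in DEP on array 1, and 0 were on array 4. Their summed signal was 277189 in the DEP extract of array 1 against 42748 in its control, and between 46807 and 93486 in the other 6 extracts. Lor, Krt5 and Krt14 made up most of this sum in every extract. The DEP extract of array 1 was the highest of the 8, and its control the lowest, for this sum, for Aqp3 and for Scnn1a. The part of these cells in the ratios of the members was not tested.

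The markers of airway-type and ciliated epithelium followed another course. Of 12 genes, 11 were on the array, and all 11 were measured above background in every extract. The median ratio was -0.22, 0.27, -0.36 and -0.36 on arrays 1 to 4, and 4 genes were higher and 7 lower by mean. Their summed signal was 104699, 232415, 187969 and 248386 in DEP and 137961, 183273, 346904 and 336052 in the controls, lowest on array 1 in both groups. Bpifa1, Ltf and Muc5b made up most of these sums. Epcam, Cdh1 and Scgb1a1 of the same list ran the other way on array 1, with ratios of 1.62, 1.74 and 1.86, so the list did not move as a whole. Muc5b, a gel-forming mucin, belongs to this list. Its control signals were 3876, 24682, 114990.0 and 100468, and its ratios were -1.09, -0.49, -2.51 and -1.55 with an adjusted p = 0.167 from limma. What these cells contribute to the Aqp5 ratios was not tested either.

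**Figure D3:**
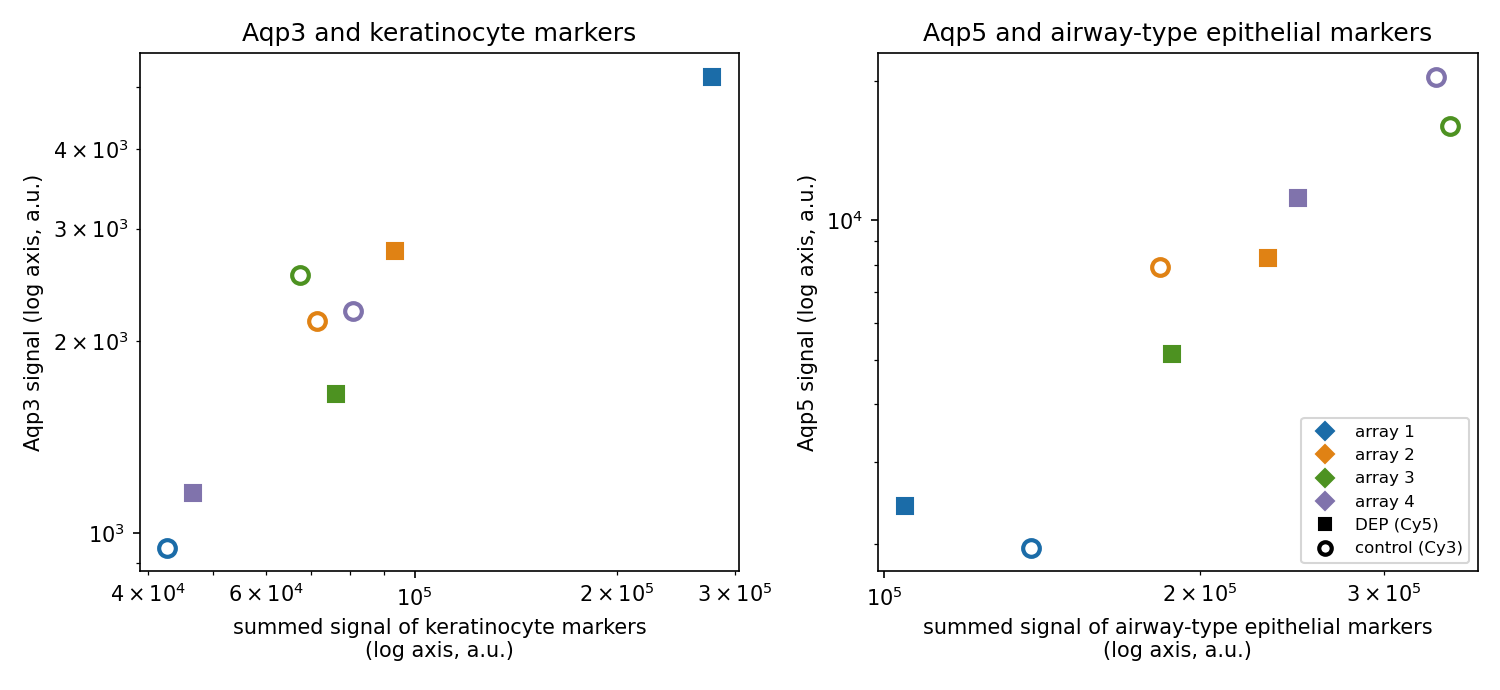
Scaled signal of Aqp3 against the summed signal of 10 keratinocyte markers (left) and of Aqp5 against that of 11 airway-type epithelial markers (right), in arbitrary units on log axes, with 1 point for each of the 8 extracts, squares for DEP and open circles for control. Aqp3 is highest where the keratinocyte sum, carried mostly by Lor, Krt5 and Krt14, is 277189. Aqp5 is lowest in the array 1 extracts, where the airway-type sums, carried mostly by Bpifa1, Ltf and Muc5b, are 104699 and 137961. The summed salivary acinar markers, not plotted, were also lowest on array 1 in both groups.

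Of the 10 salivary acinar markers, 9 were tested and 5 were measured above background in every extract, with median ratios of -0.69, 0.52, 1.18 and -0.24. Their summed signal was 1442, 6468, 7188 and 5286 in DEP and 1854, 2559, 4222 and 8114 in the controls. Like the airway-type sum, it was lowest on array 1 in both groups, and its part in the Aqp5 ratios was not tested. For the vessels and red cells in which Aqp1 is known, the 10 endothelial markers had medians of -0.15, 0.12, -0.38 and -0.028, and 9 erythroid markers -0.77, 0.48, 0.46 and 0.20. Aqp1 and the erythroid list were lower in DEP on array 1 and higher on the other 3 arrays. The erythroid sums ranged from 227709 to 346473 in DEP and from 185672 to 342975 in the controls, and their part in the Aqp1 ratios was not tested.

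Other tissues in or near the temporal bone were looked at in the same way. The 8 choroid plexus markers had medians of -1.11, -0.91, 0.064 and 0.11 on arrays 1 to 4. Of the 12 inner ear markers, 11 were tested, with medians of -0.29, 0.61, 0.39 and -0.46, and Slc26a5 and Kcne1 were not well above background on any array. The neuronal list of 10 genes had medians of -2.27, -1.09, -0.72 and 0.37, and the 8 astrocyte markers -1.90, -0.45, -0.072 and 0.21. For skeletal muscle the medians were -0.85, -0.54, 0.73 and 0.63, for bone -0.52, 0.19, 0.41 and 0.68, and for myeloid cells -1.01, -0.0033, 0.50 and 0.19. Array 1 had the lowest of the 4 medians in 6 of these 7 lists, all but the inner ear.

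A wider set of 74 genes that serve the same transport was read by its counts. Probes were matched for 73 of them and 69 could be tested. By mean ratio 37 were higher and 32 lower in DEP, next to 13919 higher and 11775 lower of all genes, with a median of 0.073, and 0 of 69 had an adjusted p under 0.05 in limma's moderated test. An unadjusted p under 0.05 was found for 6 higher and 3 lower genes, against 18.7% of all genes. The higher ones included Sgk1, Fxyd4, Ptger4, Clca1 and Clca2. Clca1 was well above background in DEP on 1 array and Clca2 on 3, and in the control neither was on any array. The lower ones included Slc12a3 and Kcne1, neither of which was well above background on any array. Past 2-fold by mean were 2 higher genes, Slc26a9 and Clca2, and 5 lower ones, Aqp6, Slc4a4, Slc12a3, Kcne1 and Kcnj10, which are named here because of these values, against 6.75% of all genes in either direction. Of these 7 genes, only Slc4a4 and Kcnj10 were measured above background in every extract. Slc26a9 was well above background in DEP on 3 arrays and in the control on 1, and Aqp6 in DEP on 3 and in the control on 2, so the sizes of their ratios are uncertain.

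By role the lists are small, and their counts stand next to 13919 higher and 11775 lower of all genes tested. Of all genes, 18.7% had an unadjusted p under 0.05 in limma's moderated test. The other 9 aquaporins had 3 higher and 6 lower genes, none with an unadjusted p under 0.05. Aqp4, the water channel of glia and of airway basolateral membranes, had ratios of -2.36, -1.04, -0.049 and 0.49, with a mean of -0.74 and an adjusted p = 0.458 from limma. It belongs to the astrocyte list too, whose medians ran in the same order. Of 13 tested ENaC regulators, 10 were higher and 3 lower, and 1 had an unadjusted p under 0.05. That gene was Sgk1, the kinase that keeps ENaC at the surface, with ratios of 0.64, 0.17, 0.35 and 0.31, a mean of 0.37 ± 0.20 and an adjusted p = 0.234. Prss8, a protease that activates ENaC, had ratios of 2.45, 0.38, 0.54 and -0.57 with a mean of 0.70 and an adjusted p = 0.484, and Nedd4l, the ligase that removes ENaC, had a mean of 0.15. Prss8 was highest on array 1 and lowest on array 4, as were St14 (2.497 and -1.10), Spint1 (3.04 and -0.91) and the keratinocyte medians (2.82 and -0.88), whose part in these counts was not tested. Hsd11b2, 1 of the 3 lower regulators, was never well above background.

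The sodium pump drives all of this transport, and its 11 tested genes comprised 3 higher and 8 lower ones. Atp1b1, a beta subunit of the pump, had ratios of -1.49, -0.56, -0.49 and 0.066 with a mean of -0.62 and an adjusted p = 0.301 from limma. Fxyd4, a modulator of the pump, had ratios of 1.94, 0.48, 0.42 and 0.50, a mean of 0.84 and an adjusted p = 0.251. Its probe was well above background in every extract but dim, with control signals of 27.7, 67.5, 45.7 and 59.9 on arrays 1 to 4.

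Among 20 tested genes of chloride and bicarbonate transport 14 were higher and 6 lower. Slc26a4 (pendrin), an anion exchanger, had ratios of -0.89, 0.79, -0.23 and 0.28 and a mean of -0.014. Of 9 genes of potassium recycling, 1 was higher and 8 were lower, and the latter include Kcne1, never well above background, and Kcnq1, which returns potassium across the membrane, with a mean of -0.017. The ratios of Kcnj10 (-2.54, -1.19, -0.33 and -0.26) and Kcnma1 (-1.89, -1.70, -0.47 and 0.24) were lowest on array 1 and highest on array 4, as were the neuronal and astrocyte medians, whose part in them was not tested. Of 7 receptors whose agonists start secretion, 6 were higher and 1 lower, and P2ry4 among the higher ones was never well above background. Ptger4, a prostaglandin E2 receptor, had ratios of 1.43, 0.58, 0.70 and 0.088, a mean of 0.70 and an adjusted p = 0.235 from limma.

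**Figure D4:**
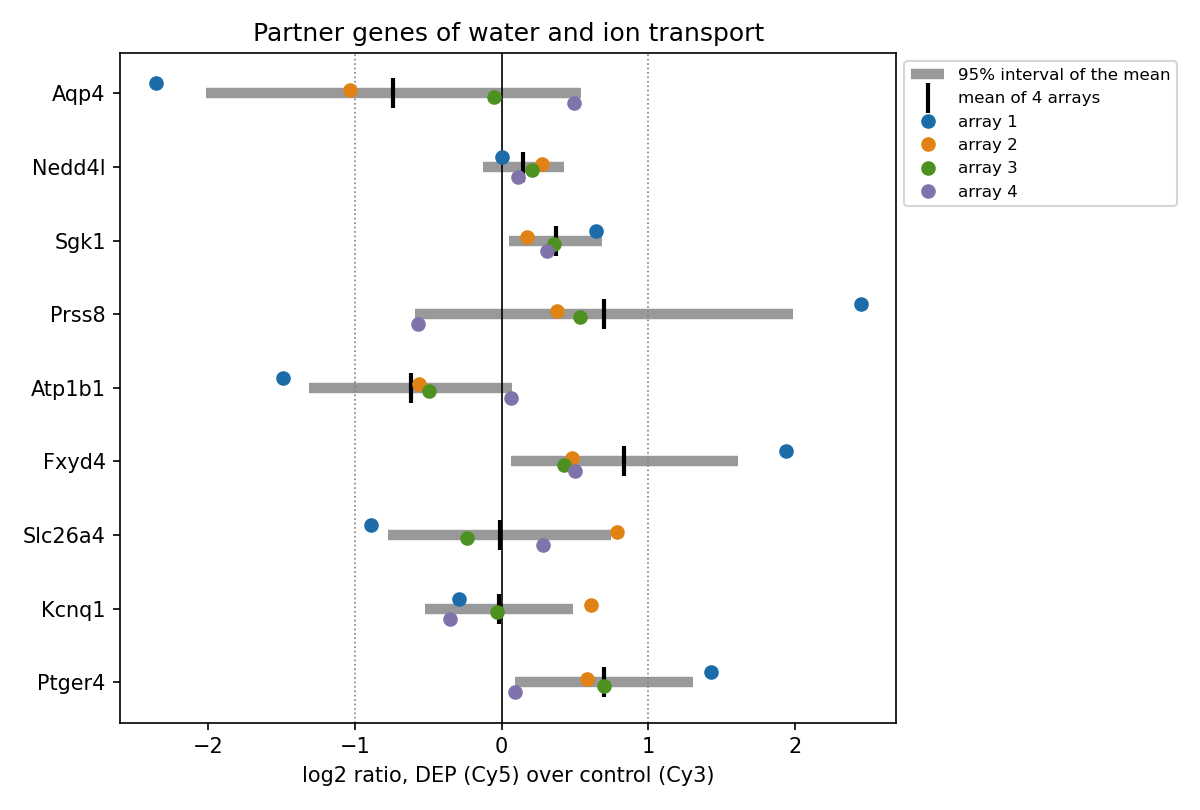
Log2 ratio of DEP (Cy5) over control (Cy3) for 9 partner genes of water and ion transport, with 1 point per array, the mean of 4 arrays as a black bar and its 95% interval from limma as a grey band. Fxyd4, whose signal was dim, lies above 0 on all 4 arrays, between 0.42 and 1.94. The points beyond the dotted 2-fold lines are those of Aqp4, Prss8, Atp1b1, Fxyd4 and Ptger4 on array 1 and of Aqp4 on array 2.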

How the data were processed

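Total RNA of dissected ears was labelled with Cy5 or Cy3 and hybridised to 4 two-colour arrays. The authors scanned the arrays and quantified the spots with Agilent Feature Extraction 10.10.1.1 (submitters' processing notes). The deposited files give the intensity of each spot in both channels, background-subtracted and dye-normalized within the array, and the authors' log10 ratio of Cy5 over Cy3. A deposited table of the same log10 ratios, rounded, was used as an alternative. The methods name a further analysis platform without a test. All 4 samples have 1 group, DEP over control, and 0 columns of values were without a sample.

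The deposited log10 ratios were converted to log2. Control spots, spots flagged as outliers (164 to 274 per array) and spots without a ratio (6179 to 8558 of 43020) were left out, and repeat spots were averaged per probe. The files hold no gene names, so probes were named by the transcript they target through RefSeq (GRCm38.p6), which named 27655 of 39429 probes. Probes without a name were counted as genes by their own target or identifier. The probe with the highest mean signal over both channels stood for its gene. The 31577 probes with a ratio on at least 3 arrays were fitted with limma 3.58.1 (R 4.3.3; lmFit with an intercept, eBayes with 1.98 prior degrees of freedom), with two-sided p-values adjusted over all of them by Benjamini-Hochberg. Signal levels come from limma's Aquantile scaling between arrays, which leaves each ratio as it was. The fit was tested on simulated data. Summaries and plots used Python 3.11.15, numpy 2.4.6, pandas 2.3.3 and matplotlib 3.10.9.

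The members, the wider transport list, the 12 lists of cell type markers and the tests were chosen with earlier results of these data known. All 9 members are named. A gene of the wider list is named if it is Aqp4, Slc26a4, Atp1b1, Nedd4l, Sgk1, Prss8 or Kcnq1, or if its brightest probe had 1 channel or both well above background on every array, kept its sign throughout and had an unadjusted p under 0.05. The few others were named after their values were seen, and 2 genes that the rule names are counted but not reported here. The 13 alternatives were normexp correction of the median spot signals (offset 50) with loess or with median centring, the deposited ratio table, 2 filters on dim probes, outlier spots kept, eBayes with an intensity trend, ordinary least squares, the mean of a gene's probes, and each array left out in turn. The number of arrays limits the precision. The scanner files name an older mouse build, so the only coordinates printed are those of the RefSeq promoters.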

Additional observations from a re-analysis of the deposited data

Results flagged for a closer look

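Of 22 sets of 4 values tested for a single value far from the rest (ratios, Cy5 levels and Cy3 levels of the measured member probes), 2 had one, and chance alone gives about 1 in 20. Both lay on array 1. The log2 level of Aqp3 in the control extract was 9.89 there and between 11.07 and 11.31 in the other 3 controls. The log2 level of Slc12a2 in the DEP extract was 12.17 there and between 12.90 and 13.04 in the other 3 DEP extracts.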

How the results depend on the processing

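The number of the 7 tested members with an unadjusted p under 0.05 in limma was 0, where 4800 of 25694 genes had one. It was 3 with normexp correction and median centring (Aqp1, Scnn1a and Ano1), a setting under which 9535 of 25694 genes had one. With each array left out in turn the members' count ranged from 0 to 1. Slc12a2 (-0.48) passed without array 2, where 2936 of 26103 genes did, and Scnn1a (0.82) without array 4, where 5006 of 26576 did. The number of members with an adjusted p under 0.05 was 1 with normexp correction and median centring, namely Aqp1 at 0.83, and 0 under the other 12 alternatives. That setting moved the median ratio of all genes from 0.032 to 0.11 and called 2988 genes in all, and it turned the mean ratio of Slc12a2 to 0.12. Leaving out an array gave a mean ratio between -0.40 and 0.73 for Aqp3 and between -0.045 and 0.93 for Scnn1b, both negative without array 1. The mean ratios of Aqp1, Aqp5, Scnn1a and Ano1 kept their sign under all 13 alternatives but not their size. With an array left out they ranged from 0.018 (without array 2) to 0.35 (without array 1) for Aqp1, from -0.81 (without array 1) to -0.17 (without array 3) for Aqp5, from 0.22 (without array 1) to 0.82 (without array 4) for Scnn1a and from 0.0095 (without array 2) to 0.31 (without array 3) for Ano1. The members' median ratio of 0.14 ranged from -0.045 to 0.31 in the same way, was 0.46 with normexp correction and median centring and 0.20 with normexp correction and loess, and the number of members past 2-fold by mean stayed at 0. Under both filters on dim probes Scnn1b could not be tested, since its signal was near background. The test of the ratios was already paired by array, since each array compares its own pair of extracts. The statements on overlapping signals compare the groups across arrays without this pairing. The cause of these shifts was not tested.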
